A study of Mus musculus with 8 samples.

Results

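The Bnc2 region is a 1300 kb stretch of mouse chromosome 4, mm10 chr4:83700000-84999999, in which the DNA replication timing of embryonic stem cells was read in 5 kb bins. It comprised 260 of the 30659 bins of the chromosome that had a score in every profile, 0.848% of them, and each of its bins was measured. The bins were chosen from the deletion minus control difference itself, which was high here. The size of that difference in these bins is therefore a description with no test, and it supports no claim about the genotypes.

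The study compared mouse embryonic stem cells of the line JM8N4, as control, with cells carrying a Klf4 enhancer deletion. Klf4 encodes a transcription factor of naive pluripotency and ends 28.2 Mb below the region. Cells had taken up the nucleotide analog BrdU for 2 h and were sorted into early and late S phase, and the BrdU-substituted DNA of each part was sequenced (Repli-seq). The 8 libraries gave 4 profiles, numbered 1 and 2 within each genotype, each from 1 early and 1 late library. The labels do not say whether the deletion cells were 1 clone or several, whether both alleles were deleted, or whether numbers 1 and 2 were separate cultures.

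Chromosomes replicate in a set order during S phase. Stretches in which many origins fire early form peaks of a timing profile, late stretches form valleys, and the slopes between them are passed by forks that move away from the peaks. Active, gene-rich DNA usually replicates early and silent, gene-poor DNA late, and the order shifts as stem cells differentiate. Bnc2 encodes basonuclin 2, a zinc finger protein known from skin, pigment and germ cells. Its neighbours are Ccdc171, which encodes a coiled-coil protein, and Cntln, which encodes centlein, a protein of the centriole.

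The timing score contrasts early with late reads and has no unit. Higher scores were taken as earlier replication, since protein-coding genes numbered 15.1 per Mb in bins whose 4 profiles averaged above 0 and 2.92 per Mb in the others. The table holds no read counts, so the depth behind each score is unknown. Over the whole chromosome the median of the deletion minus control difference was 0.16, or 0.08 within number 1 and 0.22 within number 2. Number 2 profiles also ran above number 1 profiles, by a median of 0.33 in control and 0.45 in deletion cells. Scores of adjacent bins move together, so bins are not replicates.

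RefSeq (GRCm38.p6, the build of mm10) places 3 protein-coding genes in the region. Bnc2, at chr4:84266804-84676029 on the minus strand, lies wholly inside with its 409 kb. Ccdc171 (chr4:83525409-83866143, plus strand) has 166 of its 341 kb inside, at the lower-coordinate end. Cntln (chr4:84881787-85131923, plus strand) has 118 of its 250 kb inside, at the higher-coordinate end. A further 8 long noncoding RNA genes, 5 pseudogenes and 1 small nuclear RNA gene overlap it. The largest noncoding gene, Gm33597 (chr4:84125705-84220733), and the neighbouring Gm33410, Gm33480 and Gm42310 lie in the 401 kb between Ccdc171 and Bnc2, and Gm12415 lies in the 206 kb between Bnc2 and Cntln.

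Sequence before a listed transcript start was at hand for 7 starts in the region. Shown are the 250 bases before the starts of both protein-coding genes with a listed start inside the region, and those of Gm12415, whose start lies beside the main timing peak of the region. They are written 5′ to 3′ on the strand of the gene, with each CG dinucleotide in capitals. The windows are chr4:84610198-84610447 (minus strand) for Bnc2, chr4:84741225-84741474 (plus strand) for Gm12415 and chr4:84884059-84884308 (plus strand) for Cntln.
Bnc2: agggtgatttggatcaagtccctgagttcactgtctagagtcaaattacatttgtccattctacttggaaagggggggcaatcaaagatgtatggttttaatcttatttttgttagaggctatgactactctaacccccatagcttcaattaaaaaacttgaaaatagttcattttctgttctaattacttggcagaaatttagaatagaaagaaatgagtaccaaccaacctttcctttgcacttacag
Gm12415: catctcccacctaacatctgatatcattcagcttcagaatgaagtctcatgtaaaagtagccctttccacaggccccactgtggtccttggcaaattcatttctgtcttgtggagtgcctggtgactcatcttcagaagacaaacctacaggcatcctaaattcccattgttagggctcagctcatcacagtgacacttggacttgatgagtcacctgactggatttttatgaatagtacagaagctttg
Cntln: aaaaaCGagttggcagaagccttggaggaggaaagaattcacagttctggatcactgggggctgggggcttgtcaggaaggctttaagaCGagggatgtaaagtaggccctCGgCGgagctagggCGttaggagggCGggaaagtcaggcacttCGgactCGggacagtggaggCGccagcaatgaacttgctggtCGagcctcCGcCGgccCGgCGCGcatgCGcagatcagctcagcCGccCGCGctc

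The Cntln window held 19 CG dinucleotides, and 19.7% of the 32851 windows of this kind in the table held at least as many. The Bnc2 and Gm12415 windows held 0. CG reads the same on both strands, and 92.1% of all windows held it, against 4 of the 7 in the region. The listed Bnc2 start lies 65.8 kb inside the gene from its higher-coordinate end, so the window shown does not stand for every start of the gene. The 5 kb bin that holds this start scored 1.03 in control 1, 1.80 in control 2, 1.77 in deletion 1 and 2.81 in deletion 2. The bin with the Cntln start, on the slope away from Bnc2, scored 0.21 and 1.03 in the controls against 0.92 and 2.25 in the deletion profiles. At both starts deletion 1 lay just below control 2, while deletion 2 was highest.

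Averaged over the region, the score was 0.45 in control 1, 1.15 in control 2, 1.01 in deletion 1 and 2.12 in deletion 2. The genotypes overlapped, because deletion 1 lay below control 2. Controls averaged 0.80 ± 0.49 and deletion profiles 1.56 ± 0.79 (SD, n = 2 each), and the difference of 0.76 was smaller than the SD of the deletion profiles. Within number 1 it came to 0.55 and within number 2 to 0.97, which is 0.48 and 0.75 above the chromosome median of the same number. The profiles of 1 genotype were just as far apart, at 0.70 between the controls and 1.11 between the deletion profiles. Leaving out deletion replicate 2 gave a difference of 0.21, and leaving out deletion replicate 1 gave 1.32. Leaving out control replicate 1 gave 0.41, and leaving out control replicate 2 gave 1.11. Each of these values sets 1 remaining profile against both profiles of the other genotype, so the gap between the numbers enters it. The value thus depended on which profile was left out. It stayed above 0 in all 4 cases, in bins picked for a high difference.

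**Figure D1:**
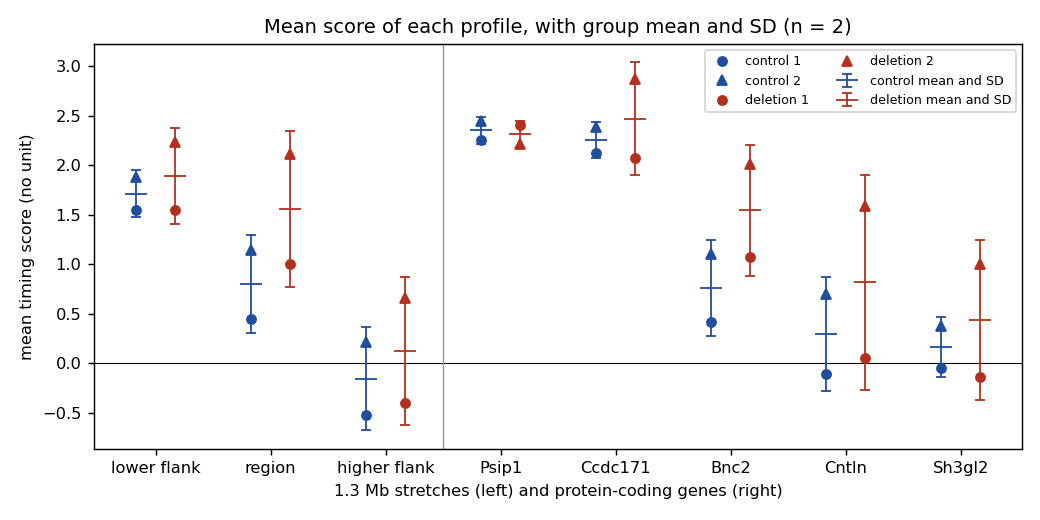
Scores averaged per profile (vertical axis, no unit) over the region, over a stretch of equal length on each side and over 5 protein-coding genes, with control in blue, deletion in red, circles for number 1, triangles for number 2, and bars for group mean and SD (n = 2). In the region deletion 1, at 1.01, sits below control 2, at 1.15, and deletion 1 sits below control 2 in every other stretch and gene plotted too.

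Stretches of equal length beside the region differed less between genotypes. At lower coordinates, chr4:82400000-83699999, the scores were 1.54 and 1.88 in the controls against 1.55 and 2.23 in the deletion profiles, a difference of 0.18. At higher coordinates, chr4:85000000-86299999, they were -0.52 and 0.22 in the controls against -0.40 and 0.66 in the deletion profiles, a difference of 0.28. Within number 1 these stretches differed by 0.01 and 0.12, and within number 2 by 0.36 and 0.44. The region thus lies on a step down from an earlier stretch below it to a later stretch above it, in each of the 4 profiles.

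All 4 profiles fell from an early peak over Ccdc171 and had a low peak below Bnc2 and a higher peak near its other end, with differences in place. The low peak lay at 84255000 in both number 1 profiles, at 84190000 in control 2 and at 84160000 in deletion 2. The places of these features were read from the mean of all 4 profiles, as the highest or lowest bin within 100 kb on either side. The early peak lies at 83650000, inside Ccdc171 and 50 kb or 10 bins outside the region, and scored 2.68 and 3.12 in the controls against 2.69 and 3.57 in the deletion profiles. From there scores fell to a valley at 83960000, 306.8 kb below Bnc2, with -0.51 and 0.34 in the controls against -0.31 and 1.24 in the deletion profiles. In this valley each number 2 profile lay above both number 1 profiles.

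In the mean of all profiles the low peak lies at 84250000, 16.8 kb below the lower-coordinate end of Bnc2, which is its 3′ end. Control scored 0.34 and 0.86 there, and deletion cells scored 1.32 and 2.25. Both deletion profiles were above both controls. Inside Bnc2 the scores dipped at 84425000, 158.2 kb from that end, to -0.08 and 0.72 in the controls against 0.42 and 1.16 in the deletion profiles, where the genotypes overlapped. The higher peak lies at 84730000, 54.0 kb beyond the 5′ end of Bnc2 and 151.8 kb short of Cntln. There control scored 1.41 and 2.12, and deletion cells scored 2.47 and 2.77, again without overlap. Scores then fell to a valley at 85000000, inside Cntln and in the first bin beyond the region, with -0.30 and 0.58 in the controls against -0.36 and 1.22 in the deletion profiles. Deletion 1 was the lowest profile in that valley and second highest on the peak before it.

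**Figure D2:**
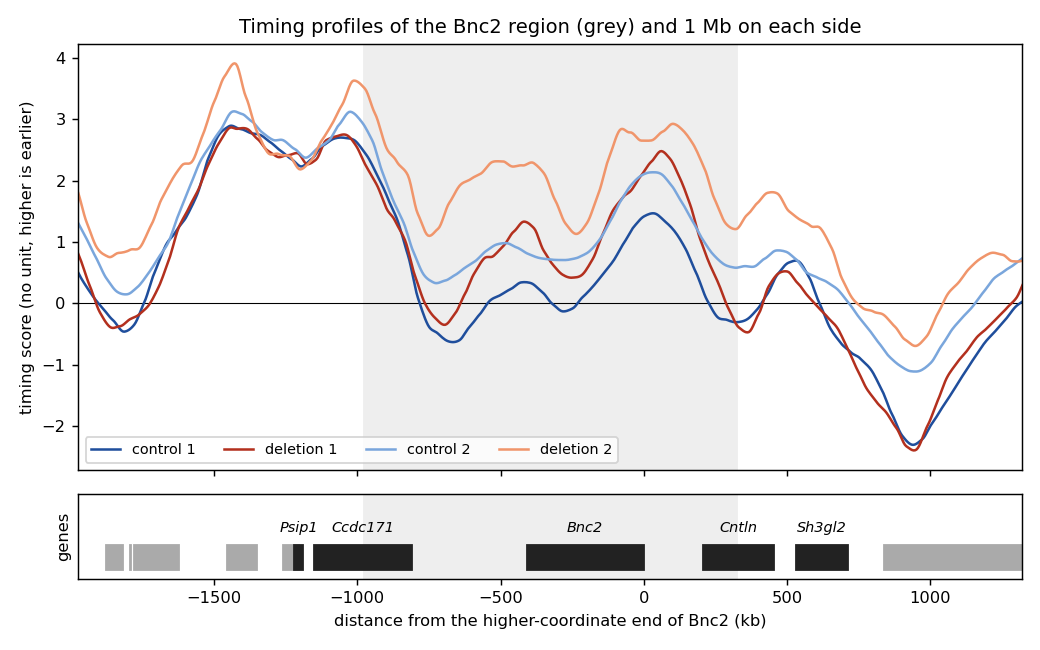
Timing score (upper panel, vertical axis, no unit, higher is earlier) of the 4 profiles against distance in kb from the higher-coordinate end of Bnc2, with the region in grey and protein-coding genes as bars in the lower panel (black where named). At the peak places from the mean of all profiles, on either side of Bnc2, deletion 1 scores 1.32 and 2.47 and control 1 scores 0.34 and 1.41. These number 1 profiles cross near both ends of the grey area.

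The height of each peak over the mean of the valleys beside it does not move when a whole profile is shifted up or down. For the low peak this height was 0.64 and 0.33 in the controls against 1.27 and 1.04 in the deletion profiles, a mean of 0.49 ± 0.22 against 1.16 ± 0.16 (SD, n = 2 each) with no overlap. It was larger in deletion cells by 0.62 within number 1 and by 0.72 within number 2. For the higher peak it was 1.60 and 1.46 in the controls against 2.45 and 1.58 in the deletion profiles, with means of 1.53 ± 0.10 and 2.01 ± 0.61 (SD, n = 2 each). At these fixed places the genotypes overlapped, and the increase was 0.84 within number 1 and 0.11 within number 2. Deletion 2 scored 2.77 at the fixed peak place, below its own top. Heights from each profile's own peak and valleys were not computed, so the overlap holds for the fixed places only. In deletion 2 the top was split, with 2.84 at 84600000 and 2.92 at 84775000 around a dip of 2.65 at 84685000. The other profiles had 1 top each, at 84705000 in control 1, 84710000 in control 2 and 84735000 in deletion 1. These heights come from the same contrast as the choice of the bins and are given without a test.

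Along the region the mean difference was not flat. It was above 0 in all 260 bins, as in 71.0% of those of the chromosome, and ran from 0.17 at 83770000, in Ccdc171, to 1.22 at 84280000, just inside Bnc2. Averaged over steps of 100 kb it was 0.20 in the first, from 83700000, and 1.16 in that from 84200000. It dropped to 0.46 in the step from 84400000, inside Bnc2, rose again to 1.03 in that from 84800000, and was 0.59 in the last, from 84900000. The difference thus had a broad top over the noncoding genes and the 3′ part of Bnc2, a dip in the middle of the gene and further tops at 84580000 and 84805000. The single highest bin of the chromosome, 1.25 at 106235000, lies elsewhere.

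Within number 1 the difference was above 0 in 233 of 260 bins, against 59.4% over the chromosome, lowest at -0.22 (83770000) and highest at 1.11 (84745000). Within number 2 it was above 0 in all 260 bins, against 72.7% over the chromosome, lowest at 0.39 (84440000) and highest at 1.52 (84285000). Deletion was therefore above control within both numbers in 233 bins, or 89.6%, where the background over the chromosome was 47.3%. The highest bin lay above Bnc2 in number 1 and near its lower-coordinate end in number 2, where number 1 had a lower top of 0.98 at 84255000. The dips inside Bnc2 lay close together, with 0.37 at 84460000 in number 1 and 0.39 at 84440000 in number 2. In the step from 84400000 the differences of the numbers were 0.45 and 0.48, and in the first step they were -0.19 and 0.59. Across the 260 bins the differences of the 2 numbers correlated with Pearson's r = 0.523, against 0.311 over the chromosome, over adjacent bins that are not independent and come from the same libraries.

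**Figure D3:**
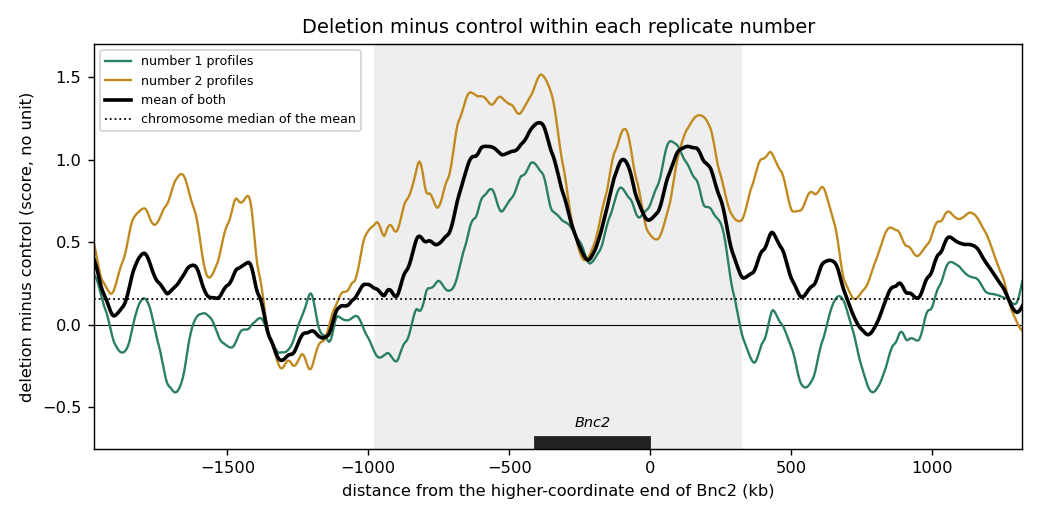
Deletion minus control score (vertical axis, no unit) between the number 1 profiles (green), between the number 2 profiles (ochre) and as their mean (black), against distance in kb from the higher-coordinate end of Bnc2, with the region in grey, Bnc2 as a bar and the chromosome median of the mean, 0.16, as a dotted line. The number 1 curve is above 0 from 83830000 to 84994999 around Bnc2, while the number 2 curve stays above 0 beyond both ends of the grey area.

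The edges differed between the numbers. Within number 1 the run of bins above 0 around the highest bin spanned 83830000 to 84994999, 1165 kb, so it began 130 kb inside the region and ended 5 kb, or 1 bin, short of its upper bound. Within number 2 it spanned 83540000 to 85979999, 2440 kb, and so passed both bounds, the upper by 980 kb. The mean difference was above 0 from 83545000 to 85414999, 1870 kb. Against the chromosome median of each curve in place of 0, the runs were 1145 kb for number 1, 1765 kb for number 2 and 1750 kb for the mean. The upper bound of the region thus lies near the edge of the number 1 run and far inside the number 2 run, while the lower bound lies between the edges of the runs.

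The bounds themselves mark no step in the scores. The last bin outside at lower coordinates, 83695000, had a mean difference of 0.22, with -0.16 in number 1 and 0.61 in number 2, and the first inside, 83700000, had 0.22, with -0.18 and 0.62. At the other end the last bin inside, 84995000, had 0.30, with -0.02 and 0.63, and the first outside, 85000000, had 0.29, with -0.06 and 0.64. At both bounds the sign within number 1 was opposite to that within number 2.

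The outer slopes were placed by the bin at which a profile had come midway from its own peak to its own valley. On the slope that leaves Ccdc171 these midpoints were 83830000 in control 1, 83820000 in deletion 1, 83790000 in control 2 and 83800000 in deletion 2. Deletion thus differed from control by -10 kb within number 1 and 10 kb within number 2, in opposite directions and by 2 bins each. On the slope that runs into Cntln they were 84845000 for control 1, 84840000 for control 2, 84870000 for deletion 1 and 84895000 for deletion 2. The deletion midpoints lay 25 kb farther out within number 1 and 55 kb within number 2, and both lay beyond both controls. The control midpoints of that slope were 1 bin, or 5 kb, apart.

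Beyond the region, a small peak near the higher-coordinate end of Cntln showed no common direction. Its top was 0.70 in control 1 at 85205000 and 0.52 in deletion 1 at 85165000, so deletion was lower within number 1. Within number 2 it was 0.86 in control at 85145000 and 1.81 in deletion at 85120000.

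A score of 0 divided the profiles by number. Control 1 was above 0 in 176 of 260 bins and deletion 1 in 228, while control 2 and deletion 2 were above 0 in all 260. Over the chromosome the shares above 0 were 44.2% in control 1, 44.4% in deletion 1, 46.9% in control 2 and 47.8% in deletion 2. Control 1 was below 0 over 235 kb from 83895000, 90 kb from 84355000 inside Bnc2 and 95 kb from 84905000. Deletion 1 was below 0 over 125 kb from 83910000 and 35 kb from 84965000, and not inside Bnc2. Every bin lay above the chromosome median of its own profile, in all 4 profiles.

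Bnc2 itself scored 0.42 in control 1, 1.11 in control 2, 1.08 in deletion 1 and 2.01 in deletion 2. Deletion 1 and control 2 were almost level. The means were 0.77 ± 0.48 and 1.55 ± 0.66 (SD, n = 2 each), a difference of 0.78, with 0.66 within number 1 and 0.90 within number 2. Over the 28 bins at the lower-coordinate, 3′ side of the gene the difference was 0.97, over the middle 28 it was 0.53 and over the 29 at the 5′ side 0.83. Control itself rose along the gene, from 0.42 over the 3′ bins to 1.35 over the 5′ bins, and deletion cells from 1.39 to 2.18, with 1.02 between. Bnc2 thus replicated earliest at its 5′ side in both genotypes.

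The stretches on either side of Bnc2 differed by more than the gene's middle. Between Ccdc171 and Bnc2 the scores were -0.15 and 0.68 in the controls against 0.43 and 1.87 in the deletion profiles, a difference of 0.89 with 0.58 in number 1 and 1.20 in number 2. Between Bnc2 and Cntln they were 1.07 and 1.76 in the controls against 1.99 and 2.71 in the deletion profiles, a difference of 0.94 with 0.93 and 0.95. In the latter stretch both deletion profiles were above both controls in 38 of 42 bins, and in the former in 15 of 81, where the background over the chromosome was 16.0%. Averaged over the stretch between Bnc2 and Cntln, the difference was nearly the same in both numbers, but along it the numbers parted. At 84730000 it was 1.06 in number 1 and 0.65 in number 2, and at 84850000 it was 0.82 and 1.27.

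Ccdc171 scored 2.13 and 2.38 in the controls against 2.07 and 2.87 in the deletion profiles. Only deletion 2 stood apart, and the difference was -0.06 within number 1 and 0.49 within number 2. Over the part of Ccdc171 inside the region the differences were -0.11 and 0.70. Cntln scored -0.11 and 0.70 in the controls against 0.05 and 1.58 in the deletion profiles, with 0.16 and 0.89 within the numbers. Without deletion replicate 2 the difference of Cntln changed from 0.52 to -0.24 and that of Ccdc171 from 0.22 to -0.19.

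In the nearest protein-coding genes outside the region, as in Ccdc171, the difference had opposite signs in the numbers. Psip1, which encodes a chromatin-bound coactivator and ends 214 kb below the region, scored 2.26 and 2.45 in the controls against 2.41 and 2.21 in the deletion profiles, and its difference of -0.04 was 0.15 in number 1 and -0.24 in number 2. Sh3gl2, which encodes endophilin A1 of synaptic vesicle recycling and starts 205 kb above the region, scored -0.05 and 0.38 in the controls against -0.14 and 1.01 in the deletion profiles. Its difference of 0.27 was -0.09 in number 1 and 0.63 in number 2. For Sh3gl2 and Ccdc171 the higher mean in deletion cells rested on deletion 2. Cntln was higher in deletion cells within number 1 too, by 0.16. Its mean difference turned negative only when deletion 2 was left out and deletion 1 was set against both controls.

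In 85 of 260 bins each deletion profile exceeded each control, or 32.7% of them, where the background over the chromosome was 16.0%. In 0 bins did both lie below both controls, where the background was 5.86%. The bins were picked for a high difference, so both counts are descriptions. These 85 bins formed 3 runs, 84195000 to 84344999 (150 kb), 84530000 to 84604999 (75 kb) and 84665000 to 84864999 (200 kb). They cover the low peak with the 3′ end of Bnc2, part of its 5′ side and the higher peak. In Bnc2 they took 16 of the 28 bins at the 3′ side, 2 of the middle 28 and 17 of the 29 at the 5′ side. From the first to the last of them, over 134 bins, deletion 1 minus control 2 ran from -0.32 at 84450000 to 0.50 at 84265000, with a median of 0.07, and over the whole region its median was -0.15. The count thus turned on which of these profiles was higher, and it was 186 after centring each profile on its chromosome median and 143 after quantile normalization.

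Tested bin by bin with limma and Benjamini-Hochberg adjustment over all 30659 bins, no bin passed an adjusted p of 0.05 in either direction, so 0 of the 260 were called higher in deletion cells and the background over the chromosome was 0%. An unadjusted limma p below 0.05 was reached in 78 bins of the region and in 299 of the chromosome. With the replicate number as a block, limma called 139 of the 260 higher, where the background was 2.09%. Since the bins were picked on this contrast, nothing is read from these counts. Without the block the p-values set the difference against the spread between 2 profiles a genotype, which limma pools in part over all bins. That spread includes the gap between the numbers and may be technical. With the block they set it against how far the differences of the 2 numbers disagree, pooled in the same way, which may be technical too.

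The number of a profile moved with its score as much as the genotype did. Number 2 was above number 1 in all 260 bins, in control as in deletion cells, against 77.5% and 80.1% of the bins of the chromosome. In control the gap between the numbers had a median of 0.72 over the region and a highest value of 1.11 at 84030000. In deletion cells its median was 1.11, and its highest value, 1.97 at 84020000, was also the highest of the whole chromosome. That bin lies in the valley between Ccdc171 and Bnc2, and the lowest gap of deletion cells, 0.29, lies at 84725000 on the higher peak. In the step from 84000000 the deletion profiles were 0.15 and 1.94 and the control profiles -0.47 and 0.57. The part of this gap in the deletion minus control difference was not tested.

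**Figure D4:**
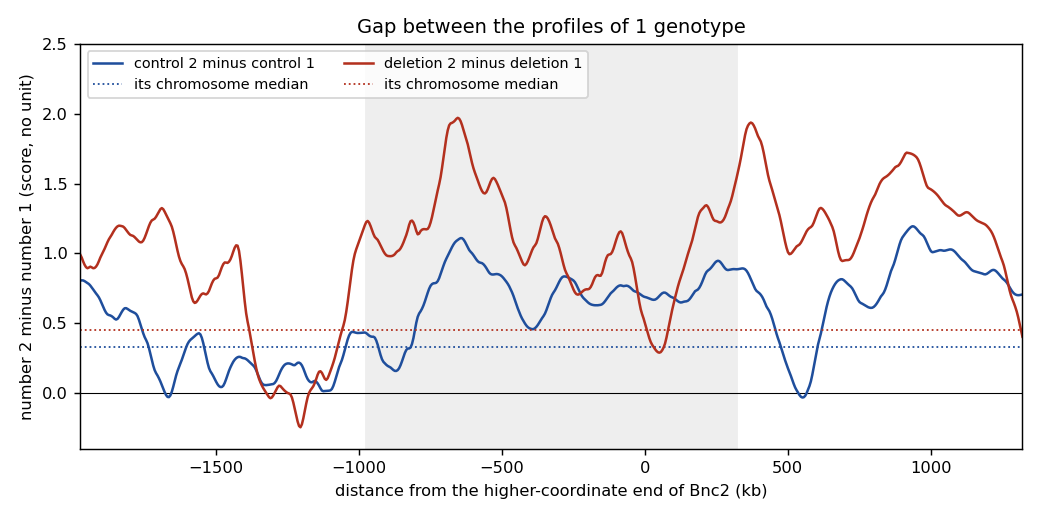
Number 2 minus number 1 score (vertical axis, no unit) in control (blue) and deletion cells (red) against distance in kb from the higher-coordinate end of Bnc2, with the region in grey and the chromosome medians, 0.33 and 0.45, as dotted lines. Both curves stay above 0 throughout the grey area, and the red curve reaches 1.97 in the valley below Bnc2 and falls to 0.29 on the peak above it.

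The outline was shared less closely between profiles here than over the chromosome, between the deletion profiles as well as across genotypes. Across the 260 bins Pearson's r was 0.969 between the controls, 0.893 between the deletion profiles, 0.894 between control 1 and deletion 1, and 0.856 between control 2 and deletion 2. Over the chromosome the same pairs gave 0.980, 0.970, 0.989 and 0.984. Across both genotype and number, r was 0.915 between deletion 1 and control 2 and 0.811 between control 1 and deletion 2. Those pairs gave 0.975 and 0.967 over the chromosome. These are descriptions across bins, and the scores of the region span a narrower range than those of the chromosome.

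Bins elsewhere on the chromosome with control means in the range of the region, from -0.11 to 2.66, numbered 8462. Their median difference was 0.17, with 0.08 within number 1 and 0.25 within number 2, against 0.80, 0.66 and 0.95 in the region. Each deletion profile exceeded each control in 19.6% of them. Over the chromosome 486 bins had a difference of at least the region's median. That 130 of them lay in the region follows from what a median is. The bins of the region were picked for this difference and the others were not, so these values are descriptions.

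Long genes often replicate late in stem cells, and Bnc2 was set beside the 31 protein-coding genes of the chromosome, itself included, that span at least 300 kb. Their differences ran from -0.51 to 0.78 with a median of 0.12. That of Bnc2 was the highest, a rank favoured by the choice of the region. The next was that of Patj, a gene for a tight junction scaffold, at 0.45, with -0.02 within number 1 and 0.92 within number 2. Within number 2 Bnc2, at 0.90, lay below Patj. Patj was also next above Bnc2 in control score, at 0.90 against 0.77. Next below was Camta1, a gene for a calmodulin-binding transcription activator, at 0.76, with a difference of -0.03. Within number 1 the differences of Patj and Camta1 were alike, at -0.02 and -0.04.

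**Figure D5:**
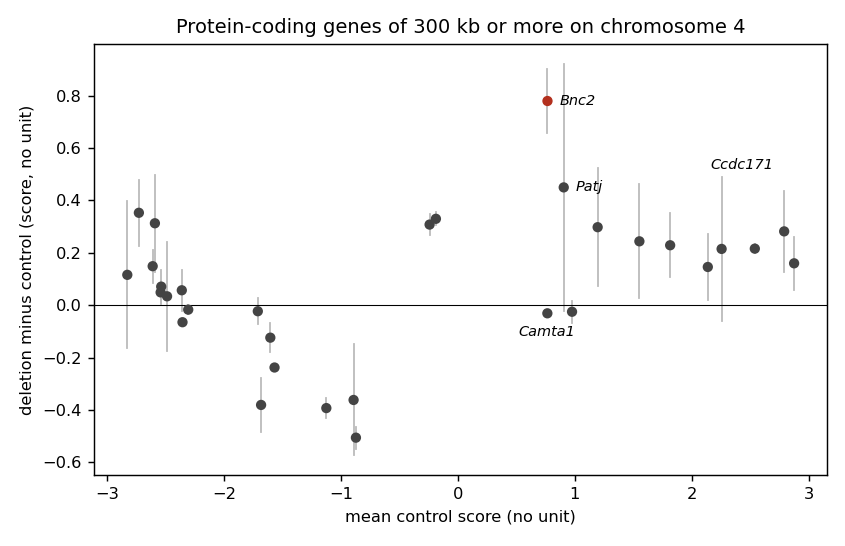
Deletion minus control score of the 31 protein-coding genes of at least 300 kb on chromosome 4 (no unit), shown against their mean scores in control cells, with bars from the number 1 to the number 2 difference. Bnc2 lies highest at 0.78, above Patj at 0.45, while Camta1, with nearly the control score of Bnc2, lies at -0.03.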

How the data were processed

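The authors deposited 1 table of early against late timing scores for chromosome 4, in 5 kb bins and with 4 profiles from 8 libraries. The score was normalized by the authors to a common interquartile range, per the labels, and that range was 4.60 in each deposited profile. Its log base and any smoothing are not given in the sources used here. Bowtie2, SAMtools, bedtools and mm10 are named in the submitters' processing notes. Of 31301 listed bins, 642 without a value in some profile were left out. Every value column matched a sample label. Positions were taken as bin starts, and profile means were averaged over bins.

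The region, the genes and the landmarks were chosen with earlier results of these data known. Bins were tested with limma 3.58.1 in R 4.3.3 (lmFit, eBayes, Benjamini-Hochberg adjustment over 30659 bins, threshold 0.05), without the replicate number as a block, on the scores as deposited. The test was also tried on simulated data, in which the noise of each bin was drawn independently, unlike the measured scores. With 2 profiles a genotype an exact permutation test of 1 value cannot go below 0.333, so none was run. Named genes were the protein-coding genes overlapping the region, the nearest on each side, and, among those of at least 300 kb, the neighbours of Bnc2 in difference and control score. Other annotated genes mark places only. Gene places and sequences are from RefSeq. Alternatives were quantile normalization, median centring, own median and interquartile range, other limma options, 50 kb bins, bins as ends, other levels for edges, the replicate block and leaving out each profile.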

Additional observations from a re-analysis of the deposited data

How the results depend on the processing

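The region's difference of 0.76 was 0.58 with quantile normalization, 0.65 with median centring and 0.85 without the outer 200 kb on each side, and ran from 0.21 to 1.32 when 1 profile was left out. The count of 85 bins with both deletion profiles above both controls rose to 143 with quantile normalization and to 186 with median centring, where the chromosome's share was 14.4% and 17.4%, and ran from 85 to 260 when 1 profile was left out. The chromosome's share moved with it, to 65.4% without deletion replicate 1 (260 bins), 52.2% without control replicate 2 (233 bins), and 24.3% and 23.2% without control replicate 1 or deletion replicate 2 (85 bins each). With the replicate block, comparing within numbers, it was 233, where the chromosome's share was 47.3%.

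Limma called 0 bins of the region under every setting but the replicate block, which called 139 of 260 higher (53.5%), where 2.09% of the chromosome's bins were called higher. Same-numbered profiles deviated together (correlation 0.637 over the chromosome, 0.449 in the region), but the labels do not say whether they were made together. The lowest unadjusted counts, 0 bins of the region below 0.05, came without control replicate 1 or deletion replicate 2.

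The edge runs of 1750, 1145 and 1765 kb for the mean, number 1 and number 2 shrank to 420, 420 and 450 kb at 50% of the highest value. These shorter runs were not in the same place. That of number 1 spanned 84515000 to 84934999, while those of the mean (83975000 to 84394999) and number 2 (83935000 to 84384999) ended below it. Only the run around the highest bin was measured, and the mean passed its level of 0.61 again at 84510000 (0.64). Against 0, a level chosen after seeing the data, they were 1870, 1165 and 2440 kb. Without deletion replicate 2 the differences of Ccdc171, Cntln and Sh3gl2 were -0.19, -0.24 and -0.30, and that of Psip1, -0.04, became 0.06 without control replicate 2 or deletion replicate 2. That of Bnc2 ran from 0.31 to 1.25. The depth behind the scores is unknown.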
